A study of Arabidopsis thaliana with 6 samples.

Results

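Nuclear genes for the proteins of the plastid ribosome were compared between phyA-1 and wild-type seedlings of Arabidopsis thaliana. The 39 genes were taken by their AGI identifiers from a list of plastid small-subunit (30S) proteins, large-subunit (50S) proteins and plastid-specific ribosomal proteins (PSRP). They are 39 of the 33557 genes listed, and all 39 were among the 22892 genes that the authors tested. By class they were 9 core proteins of the 30S subunit, 24 core proteins of the 50S subunit and 6 PSRP.

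Seedlings of the Ler ecotype, wild type or carrying the phyA-1 allele of the far-red photoreceptor phytochrome A, were grown for 4 days in darkness and then given 3 hours of far-red light. Whole seedlings of both genotypes got the same treatment, and polyadenylated RNA was sequenced from 3 independent biological replicates of each, 6 libraries in all. The comparison asks which transcripts differ when phytochrome A is missing under the light that it alone senses well. No seedlings kept in darkness were analysed here, so differences already present before the light cannot be told apart from responses to it.

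Plastid ribosomes are of the bacterial type. Part of their proteins, and all of their ribosomal RNA, are encoded in the plastid genome, while the remaining proteins are encoded in the nucleus, made in the cytosol and imported. These ribosomes make the plastid-encoded core proteins of the photosynthetic complexes, and dark-grown seedlings build them up as etioplasts turn into chloroplasts. Protein names follow the common nomenclature, in which u marks a universal protein, b a bacterial-type protein and c the chloroplast form. Roles given for core proteins are those known for their Escherichia coli counterparts unless another source is named.

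The authors' deposited table gives 1 pooled FPKM value (fragments per kilobase of transcript, scaled to the mapped fragments) for each gene and genotype and a q-value for their difference. All levels and q-values stated here come from that table, which holds no values per library, so no spread between replicates can be given. A gene was called lower or higher in phyA-1 at a deposited q-value of 0.05 or below. Ratios are log2((phyA-1 FPKM + 1)/(wild-type FPKM + 1)), so negative values are lower in the mutant. Because whole seedlings were used, fewer cells or plastids and less RNA per cell cannot be told apart. PHYA itself, the gene mutated in phyA-1, was listed at 16.0 FPKM in phyA-1 and 166.6 FPKM in wild type, which gives a log2 ratio of -3.30, and its q-value in the authors' deposited table was 0.00045. The median log2 ratio over all tested genes was 0.05, and it was 0.07 over the 13586 tested genes at 5 FPKM or more in both genotypes. The highest level of any tested gene was 239700 FPKM in wild type and 898100 FPKM in phyA-1. These maxima were taken for each genotype separately and need not be of the same gene. Summed over all tested genes, the level was 1062000 FPKM in wild type and 1738000 FPKM in phyA-1. The part of genes at such levels in the ratios was not tested.

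Plastid ribosomal protein transcripts were lower in phyA-1 almost throughout, by a modest and similar amount. The level was lower in phyA-1 for 38 of the 39 genes, against 41.0% of all tested genes. Of the 39 genes, 16 were called lower, against a background of 8.54% of tested genes called lower. A single gene, PSRP1, was called higher, against a background of 8.61% called higher, and the 17 calls in either direction stand against a background of 17.2%. The median log2 ratio of the 39 genes was -0.37, with quartiles of -0.48 and -0.31, which put the median phyA-1 level at 77.3% of wild type. Summed over the genes, the level was 8764 FPKM in wild type and 6615 FPKM in phyA-1.

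The starts of 4 of these genes are shown because they are the gene that rose, the PSRP and the core protein gene with the largest falls, and the core protein gene with the ratio nearest to 0. Each run is the 250 bases before the start that RefSeq annotates on assembly TAIR10.1, read 5′ to 3′ on the gene's strand. It is the sequence of the reference ecotype Columbia and may differ in Ler. Capitals mark the I-box, GATAAG or its reverse complement CTTATC, a motif known from promoters of light-regulated genes such as those of the Rubisco small subunit.
PSRP1, chr5:8365351-8365600 (plus strand): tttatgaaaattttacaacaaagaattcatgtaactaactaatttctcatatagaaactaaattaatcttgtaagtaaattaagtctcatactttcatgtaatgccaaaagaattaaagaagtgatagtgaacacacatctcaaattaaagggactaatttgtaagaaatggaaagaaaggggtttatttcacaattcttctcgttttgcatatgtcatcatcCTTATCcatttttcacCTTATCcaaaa
PSRP3/1, chr1:25758412-25758661 (minus strand): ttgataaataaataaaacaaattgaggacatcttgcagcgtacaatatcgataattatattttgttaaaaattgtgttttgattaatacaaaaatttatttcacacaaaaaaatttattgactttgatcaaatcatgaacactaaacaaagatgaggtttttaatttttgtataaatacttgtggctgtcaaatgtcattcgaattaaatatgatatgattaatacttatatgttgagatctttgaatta
bL27c, chr5:16410532-16410781 (plus strand): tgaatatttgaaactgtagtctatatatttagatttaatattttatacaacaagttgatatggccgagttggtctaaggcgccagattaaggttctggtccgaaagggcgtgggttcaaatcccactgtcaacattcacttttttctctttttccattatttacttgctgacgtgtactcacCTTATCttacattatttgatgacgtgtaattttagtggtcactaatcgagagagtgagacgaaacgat
uL29c, chr5:26060915-26061164 (plus strand): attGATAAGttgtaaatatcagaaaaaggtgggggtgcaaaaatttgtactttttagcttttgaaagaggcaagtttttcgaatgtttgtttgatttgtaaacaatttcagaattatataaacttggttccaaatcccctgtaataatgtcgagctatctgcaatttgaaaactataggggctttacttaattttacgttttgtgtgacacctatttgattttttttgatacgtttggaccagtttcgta

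The PSRP1 stretch held 2 I-boxes, both within 30 bases of the start and both as CTTATC on the gene's strand. The PSRP3/1 stretch held none. The deposited locus of this minus-strand gene ends at chr1:25758232, short of the printed bases, so the bases next to the deposited start are not among those printed. In front of bL27c lay 1 I-box, and the same 250 bases contain an annotated tRNA gene, AT5G40945, at chr5:16410585-16410665. Another I-box of bL27c, as GATAAG, begins in the last printed bases and crosses the start, so it is not marked. The single I-box in front of uL29c lay at the far end of the stretch. Nearly all of that stretch, with the I-box, is inside the annotated neighbouring gene TGA1, at chr5:26057533-26061157. The deposited locus of uL29c begins at chr5:26061229, also some way from the printed bases.

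The genes of the small subunit were moderately lower. Of the 9 core proteins of the 30S subunit, 4 were called lower, against 8.54% of all tested genes, and none higher. All 9 had a lower level in phyA-1. Their median log2 ratio was -0.37, with a range from -0.53 to -0.30.

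The uS10c gene (AT3G13120), whose bacterial counterpart sits in the head of the small subunit and also takes part in transcription antitermination, fell from 222.6 FPKM in wild type to 153.9 FPKM in phyA-1. The bS21c gene (GHS1, AT3G27160), named for the glucose-hypersensitive Arabidopsis mutant, fell from 231.6 FPKM to 165.0 FPKM. For uS13c (EMB3137, AT5G14320), which touches the peptidyl tRNA with its tail, the level fell from 206.5 FPKM to 158.7 FPKM. The remaining 5 core proteins of the 30S subunit were not called, though each was lower in the mutant. The uS5c gene (EMB3113, AT2G33800), for a protein that bears on decoding accuracy, was at 248.3 FPKM in wild type and 191.4 FPKM in phyA-1. For bS20c (PRPS20, AT3G15190), an early-binding assembly protein, the levels were 220.8 FPKM and 171.4 FPKM. For bS6c (AT1G64510), of the platform of the small subunit, they were 212.8 FPKM and 166.0 FPKM. These 3 genes thus stood at close to the same fraction of wild type as the called uS13c gene. The lowest levels of the class were those of bS1c (RPS1, AT5G30510), an mRNA-binding protein, at 148.1 FPKM and 120.4 FPKM. Next above them were those of uS9c (RPS9, AT1G74970), another protein that touches the peptidyl tRNA, at 159.2 FPKM and 128.0 FPKM.

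The 6 PSRP were the class in which every gene was called, 5 lower and 1 higher, against 8.54% and 8.61% of all tested genes. These proteins were first described in spinach chloroplast ribosomes and have no counterpart among the core proteins of Escherichia coli ribosomes.

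The PSRP3/1 gene (AT1G68590), for a small-subunit protein shared with cyanobacteria, showed the lowest ratio of all 39 genes. It fell from 240.8 FPKM in wild type to 130.3 FPKM in phyA-1, a log2 ratio of -0.88 with a q-value of 0.00045 in the authors' deposited table. A sister gene outside the 39, PSRP3/2 (AT5G15760), was listed at 3.37 FPKM in wild type and 3.53 FPKM in phyA-1, with a q-value of 0.90 in the authors' deposited table. The PSRP3/1 gene therefore held nearly all of the PSRP3 transcript in both genotypes.

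For PSRP2 (AT3G52150), an RNA-binding protein of the small subunit, the level fell from 143.8 FPKM to 99.2 FPKM. The PSRP4 gene (AT2G38140), for a relative of the small Thx protein of Thermus ribosomes, fell from 296.8 FPKM to 227.2 FPKM. Both large-subunit PSRP were lower as well. The PSRP5 gene (AT3G56910) had the highest mean level of its class and fell from 344.7 FPKM to 254.7 FPKM, a log2 ratio of -0.43 with a q-value of 0.0227 in the authors' deposited table. The PSRP6 gene (AT5G17870) fell from 79.3 FPKM to 57.5 FPKM, the lowest phyA-1 level of the 39 genes.

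PSRP1 (AT5G24490, at chr5:8365601-8368736) moved the other way. Its level rose from 44.7 FPKM in wild type to 80.0 FPKM in phyA-1, a log2 ratio of 0.83 with a q-value of 0.00045 in the authors' deposited table. This was the lowest wild-type level of the 39 genes and, in phyA-1, one of the lowest. The protein belongs to a family of bacterial hibernation factors that bind the decoding region of idle ribosomes, and in spinach it is known as a stress-type factor of that kind rather than as a structural part of the ribosome. The annotation used here describes AT5G24490 only as a 30S ribosomal protein. The deposited locus of PSRP1 also covers AT5G24500, which was listed at 17.4 FPKM in wild type and 21.1 FPKM in phyA-1, with a q-value of 0.61 in the authors' deposited table. The way reads were split between such overlapping genes is not stated in the labels.

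**Figure D1:**
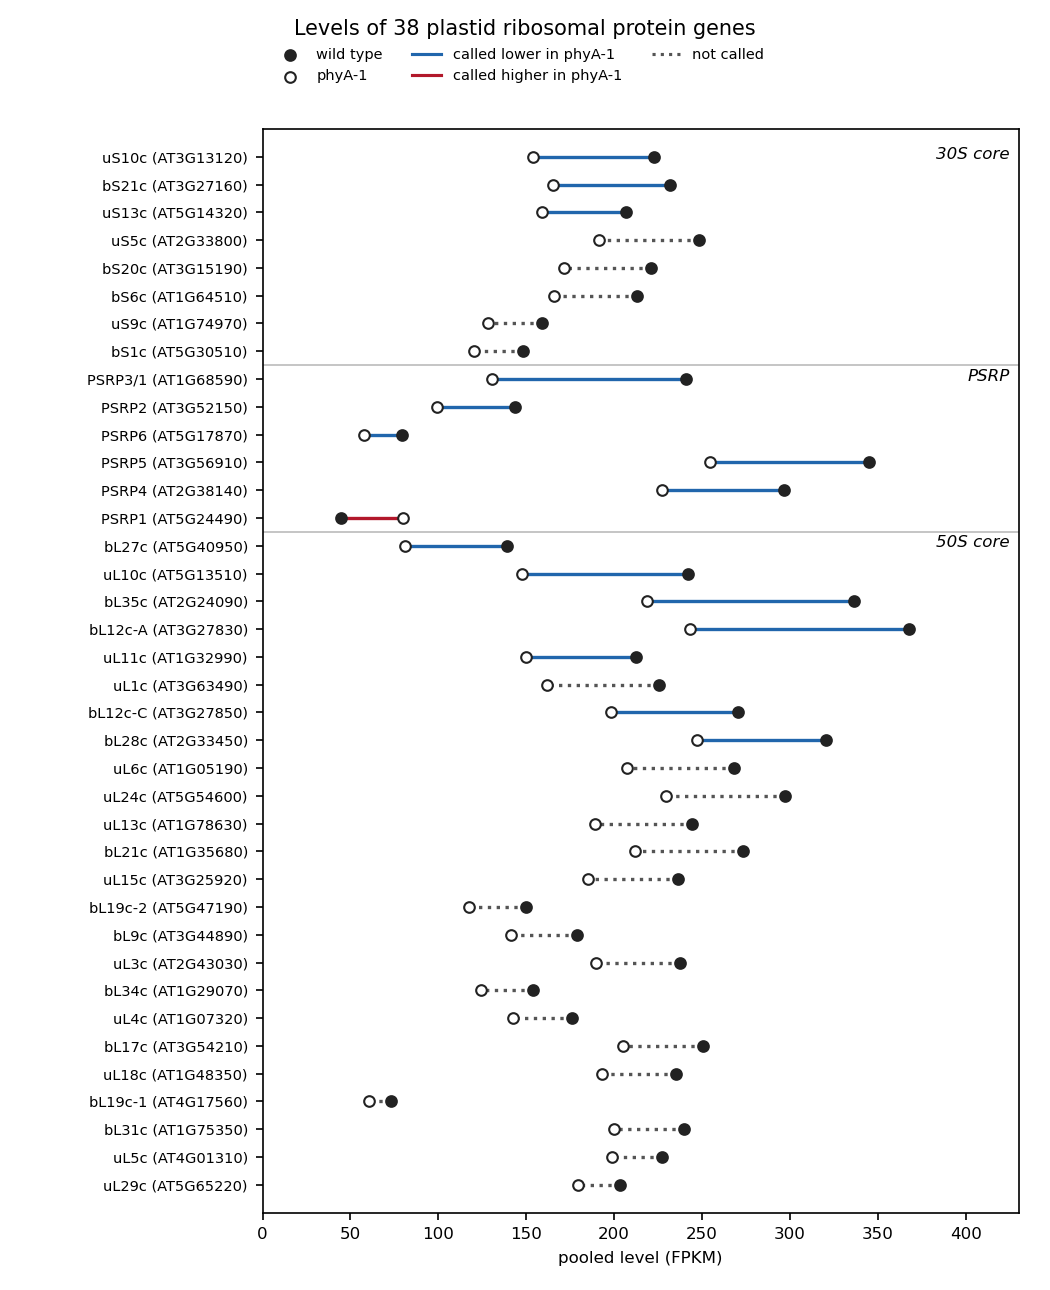
Pooled level of 38 of the 39 genes in FPKM (x axis), with filled circles for wild type and open circles for phyA-1; a line joins the genotypes, solid where the authors' q-value called a difference and dotted where it did not, and there are no error bars because the table holds 1 pooled value per genotype. Every open circle lies left of its filled circle except that of PSRP1, at 80.0 FPKM against 44.7 FPKM.

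Large-subunit genes were lower by about as much as small-subunit genes. Of the 24 core proteins of the 50S subunit, 7 were called lower, against 8.54% of all tested genes, and none higher. All 24 had a lower level in phyA-1, and the median log2 ratio was -0.36. The range, from -0.77 to -0.18, was the widest among the core proteins.

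All 4 genes of the L12 stalk were called lower, against 8.54% of all tested genes. The stalk is the flexible arm of the large subunit that recruits the translation factors, and uL10c and uL11c form its base. Their summed level was 1092 FPKM in wild type and 738.2 FPKM in phyA-1, and their median log2 ratio was -0.55. The uL10c gene (EMB3136, AT5G13510) fell from 241.8 FPKM to 147.4 FPKM, a log2 ratio of -0.71 with a q-value of 0.00045 in the authors' deposited table. The uL11c gene (PRPL11, AT1G32990) fell from 212.2 FPKM to 149.8 FPKM.

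The bL12c protein, the repeated part of the stalk, is encoded by a pair of expressed genes. The first, bL12c-A (RPL12-A, AT3G27830), fell from 367.6 FPKM to 242.9 FPKM, a log2 ratio of -0.60 with a q-value of 0.000841 in the authors' deposited table. The second, bL12c-C (RPL12-C, AT3G27850), fell from 270.3 FPKM to 198.1 FPKM, a log2 ratio of -0.45 with a q-value of 0.0157 in the authors' deposited table. Their coding sequences were 93.4% identical, with an unbroken identical run of 255 bases, so the split of reads between them is uncertain and the sum is the safer value. That sum was 637.9 FPKM in wild type and 440.9 FPKM in phyA-1, a log2 ratio of -0.53. It was 2.73 times the median of 34 other genes in wild type and 2.51 times that median in phyA-1. These 34 are the set without PSRP1 and the bL12c and bL19c genes. Bacterial ribosomes carry bL12 in several copies and the other proteins mostly once. RPL12-B (AT3G27840), another gene of the family, which lies between them on chromosome 3, was listed at 0 in both genotypes and was not tested by the authors.

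Both bL12c genes have an I-box as CTTATC shortly after the annotated start, 11 bases from it in bL12c-A and 10 bases from it in bL12c-C. The sites are shown with 6 bases on each side because the stretch up to the motif is the same in both paralogs.
bL12c-A: atacccCTTATCcatcat
bL12c-C: atacccCTTATCttttgt

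No call was made for the 2 genes of the 5S ribonucleoprotein or the 4 of the peptide exit tunnel. With 17.2% of all tested genes called in either direction, these sites hold too few genes to read anything from this. At an unadjusted p-value of 0.05 in the authors' deposited table, 0 and 2 of their genes were lower, against 11.6% of all tested genes. The 5S proteins uL5c (AT4G01310) and uL18c (EMB3105, AT1G48350) bind the 5S ribosomal RNA. The uL5c gene was at 227.2 FPKM in wild type and 198.9 FPKM in phyA-1, a log2 ratio of -0.19 with a q-value of 0.40 in the authors' deposited table. For uL18c the levels were 235.0 FPKM and 193.3 FPKM. Among the 4 proteins that line or ring the exit tunnel, the median log2 ratio was -0.30. The uL29c gene (AT5G65220) was at 203.4 FPKM and 179.7 FPKM, a log2 ratio of -0.18 with a q-value of 0.43 in the authors' deposited table, the ratio nearest to 0 among the 39. The uL4c gene (RPL4, AT1G07320) was at 176.1 FPKM and 142.6 FPKM. For bL17c (AT3G54210) the levels were 250.7 FPKM and 205.1 FPKM, and for uL24c (RPL24, AT5G54600) they were 297.0 FPKM and 229.6 FPKM. The difference between the stalk and the other sites was not tested.

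On the side of the large subunit where tRNA leaves, 1 of 3 genes was called lower, against 8.54% of all tested genes. The bL28c gene (PRPL28, AT2G33450) fell from 320.6 FPKM to 247.0 FPKM. The uL1c gene (EMB3126, AT3G63490), for the mobile L1 stalk, was at 225.3 FPKM and 161.8 FPKM. The bL9c gene (RPL9, AT3G44890), for the long protein at the base of the L1 stalk, was at 179.1 FPKM and 141.5 FPKM.

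Of the other 11 core proteins of the 50S subunit, 2 were called lower, against 8.54% of all tested genes. Both lay among the 5 lowest ratios of all 39 genes. The bL27c gene (RPL27, AT5G40950), for a protein that reaches towards the peptidyl transferase centre, fell from 138.9 FPKM to 81.0 FPKM, a log2 ratio of -0.77 with a q-value of 0.00045 in the authors' deposited table. The bL35c gene (PRPL35, AT2G24090), for a small protein buried in the subunit, fell from 336.7 FPKM to 218.6 FPKM, a log2 ratio of -0.62 with a q-value of 0.00045 in the authors' deposited table.

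The other 9 were not called and were all lower in the mutant. Early-binding assembly proteins among them were uL3c (AT2G43030), at 237.4 FPKM in wild type and 189.9 FPKM in phyA-1, and uL13c (emb1473, AT1G78630), at 244.2 FPKM and 188.9 FPKM. For uL15c (RPL15, AT3G25920), a later-binding protein, the levels were 236.2 FPKM and 185.0 FPKM. For uL6c (emb2394, AT1G05190), near the factor-binding site, they were 268.3 FPKM and 207.1 FPKM. The bL21c gene (RPL21C, AT1G35680), for a protein bound to the 23S ribosomal RNA, was close to these at 273.1 FPKM and 211.8 FPKM. The bL31c gene (emb2184, AT1G75350), for a protein that bridges the subunits, was at 239.8 FPKM and 200.1 FPKM, a log2 ratio of -0.26 with a q-value of 0.206 in the authors' deposited table. For bL34c (AT1G29070), among the smallest of the ribosomal proteins, the levels were 153.7 FPKM and 124.0 FPKM.

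The bL19c protein, at the interface of the subunits, also has a pair of genes, which were expressed unequally. The bL19c-2 gene (AT5G47190) was at 149.8 FPKM in wild type and 117.7 FPKM in phyA-1, a log2 ratio of -0.34 with a q-value of 0.0695 in the authors' deposited table. The bL19c-1 gene (AT4G17560) was at 73.0 FPKM and 60.3 FPKM, a log2 ratio of -0.27 with a q-value of 0.165 in the authors' deposited table. The level of bL19c-2 was 2.05 times that of bL19c-1 in wild type and 1.95 times in phyA-1. Summed, the genes gave 222.8 FPKM in wild type and 178.0 FPKM in phyA-1. These sums were 0.955 and 1.01 times the median of the same 34 genes used for bL12c. Each bL19c gene alone was thus low for the set, while their sum was not. Their coding sequences were 82.6% identical, with a longest identical run of 43 bases.

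Many of the 22 genes without a call lay close to the threshold. The authors' deposited table gave 10 of them a q-value above 0.05 and at most 0.1, 9 a q-value above 0.1 and at most 0.2, and 3 a higher one. The 3 called genes nearest the threshold were PSRP4, uS13c and bL28c, with q-values of 0.0390, 0.0428 and 0.0433 in the authors' deposited table. The nearest genes without a call were uL1c, uL24c, bL21c, uL6c, uL13c and bS20c, with q-values of 0.0512, 0.0550, 0.0564, 0.0570, 0.0589 and 0.0601 in the authors' deposited table. Genes on the 2 sides of the threshold had nearly the same ratio, -0.38 for PSRP4 and -0.37 for uL24c. By the unadjusted p-value of 0.05 in the authors' deposited table, 31 of the 39 genes were lower, against 11.6% of all tested genes. At a stricter q-value of 0.01 in the authors' deposited table, 9 genes were called lower and PSRP1 was still called higher. The share of all tested genes at that threshold was not counted.

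Apart from PSRP1, the genes varied little in their ratio. Over these 38 genes the log2 ratio had an SD of 0.15 across genes, and 31 of the 39 lay between -0.55 and -0.25. The order of the genes by level was largely the same in both genotypes, with a Pearson r of 0.92 between their log2 levels across the 39 genes. Between the ratio and the mean level, Spearman's rho was -0.195 across the 39 genes. Both are descriptions of genes measured in the same libraries.

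**Figure D2:**
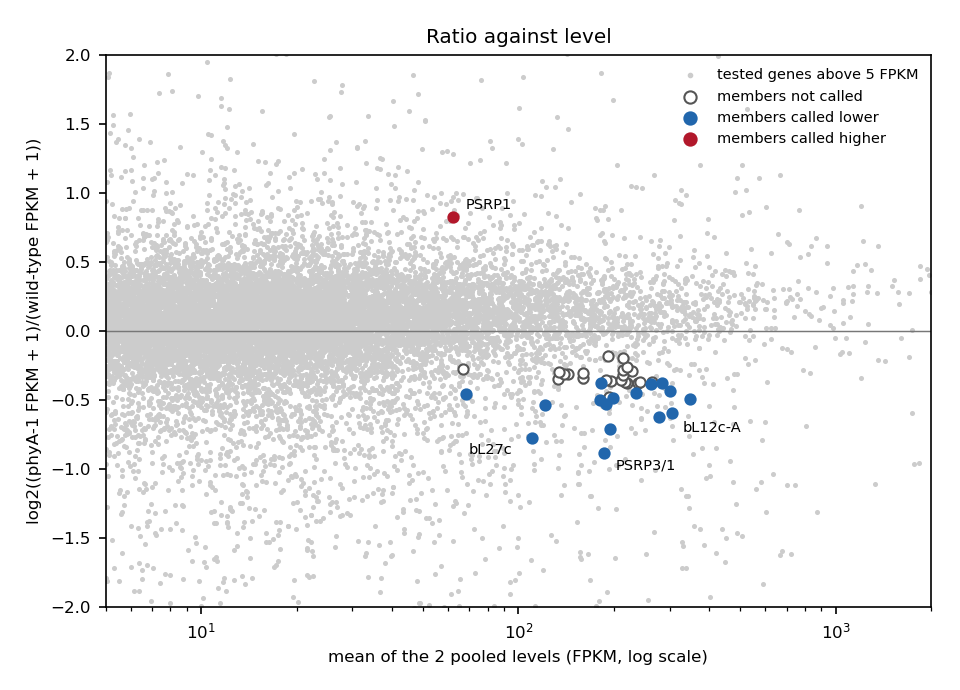
Log2 ratio of phyA-1 over wild type (y axis) against the mean of the pooled levels in FPKM on a log scale (x axis), for tested genes above 5 FPKM in grey and for the 39 genes as circles, blue for called lower, red for called higher and open for not called; of 14234 such genes, 177 lie outside the axes. All circles but that of PSRP1 lie below 0, in a narrow band at high levels.

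Plastid ribosomal protein transcripts were among the abundant ones of these seedlings. In wild type, 36 of the 39 genes were above 100 FPKM, a level that 6.76% of tested genes passed. The median of the 39 was 231.6 FPKM in wild type, where PSRP1 was lowest at 44.7 FPKM, and 171.4 FPKM in phyA-1, where PSRP6 was lowest at 57.5 FPKM. Among the 2190 tested genes in the same range of mean level, 263 were called lower, 295 were called higher and 33.7% had a lower level in phyA-1. The median log2 ratio of those 2190 genes was 0.11.

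Names of 9 of the genes come from mutants with defective embryos. Of these, 2 were called lower, against 8.54% of all tested genes, and the median log2 ratio of the 9 was -0.37. The other 30 genes had the same median, with 14 called lower and PSRP1 called higher.

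Deposited loci of 8 of the 39 genes also cover another gene, so their levels are less certain. They include PSRP3/1, uL10c, uL1c, PSRP5, bS20c, uL15c and PSRP1. The partner gene of PSRP3/1 was listed at 1.40 FPKM in wild type and 2.53 FPKM in phyA-1, and that of uL10c at 9.74 FPKM and 9.05 FPKM. Those of PSRP5 and bS20c were below 10 FPKM in both genotypes. Higher partners were those of uL1c, at 25.6 FPKM and 22.1 FPKM, and of uL15c, at 34.3 FPKM and 44.5 FPKM. The partner of PSRP1 had the highest level relative to its member, 38.9% of PSRP1 in wild type and 26.4% in phyA-1. Without these 8 genes, 12 of 31 were called lower and 0 higher, and the median log2 ratio was again -0.37.

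Most genes listed for other proteins that work with the plastid ribosome were also lower, several of them by more. Of 12 plastid translation factors, 8 were called lower, against 8.54% of all tested genes, and none higher. The median log2 ratio of the 12 was -0.69. The level was lower in phyA-1 for 11 of the 12, and the ratios ranged from -1.50 to 0.33. The elongation factor EF-G (SCO1, AT1G62750), which moves the ribosome along the mRNA, fell from 113.7 FPKM to 39.6 FPKM, a log2 ratio of -1.50. The initiation factor IF2 (FUG1, AT1G17220), which brings the first tRNA, fell from 71.7 FPKM to 25.2 FPKM, a log2 ratio of -1.47. PrfB3 (AT3G57190), a relative of release factors that stabilises a plastid transcript, fell from 5.62 FPKM to 1.87 FPKM, and AT4G11175, for an initiation factor of the IF1 family, from 61.4 FPKM to 29.3 FPKM. The stalk proteins that recruit EF-G fell by less, with log2 ratios from -0.71 to -0.45. This difference was not tested.

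Of 15 factors that assemble or modify the plastid ribosome, 11 were called lower, against 8.54% of all tested genes, and none higher. The median log2 ratio of the 15 was -0.50. The level was lower in phyA-1 for 12 of the 15, and the ratios ranged from -1.40 to 0.09. AT4G34730, of the RbfA family of small-subunit assembly factors, fell from 31.8 FPKM to 11.4 FPKM, a log2 ratio of -1.40. The RNA-binding pentatricopeptide repeat protein AT5G46580 fell from 22.1 FPKM to 13.1 FPKM. The GTPase genes EMB269 (AT5G18570) and BPG2 (AT3G57180) fell from 14.1 FPKM to 8.46 FPKM and from 6.34 FPKM to 3.65 FPKM. The assembly factor genes named here had levels below those of the ribosomal proteins. Not all of the list did, since AT5G14910 was at 132.1 FPKM in wild type and 97.8 FPKM in phyA-1.

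Of 17 proteins associated with the plastid RNA polymerase, 9 were called lower, against 8.54% of all tested genes, and none higher. With the pseudocount of 1 used here, their median log2 ratio, -0.37, was that of the ribosomal proteins. With a pseudocount of 5 the medians were -0.29 and -0.36. Within that list PTAC16 fell from 83.1 FPKM to 29.2 FPKM, a log2 ratio of -1.48, while PTAC2, FLN2 and PTAC3 had log2 ratios of -0.78, -0.68 and -0.58. The nuclear photosystem I genes, whose plastid-encoded partners are made on these ribosomes, went further. All 12 were called lower, against the same 8.54% of all tested genes, with a median log2 ratio of -1.46 and a range from -1.95 to -0.84. The lowest ratios were those of PSAN, PSAH2, PSAD-2 and PSAK, at -1.95, -1.92, -1.89 and -1.72. The lowest ratio among the plastid ribosomal proteins, that of PSRP3/1, lay just below the highest among the photosystem I genes, that of PSAE-2.

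No gene was called in a chosen list of cytosolic ribosomal proteins, and genes of the family outside that list were not looked at. Of the 38 listed genes, 0 were called in either direction by the test in the authors' deposited table, against 17.2% of all tested genes. The smallest unadjusted p-value among them in that table was 0.0965, for RPS5B. Their median log2 ratio was 0.04, with a range from -0.17 to 0.24, and their summed level was 9800 FPKM in wild type and 10110 FPKM in phyA-1. The gene of this list with the highest mean level, emb2171 (AT3G04400), was at 461.6 FPKM and 477.8 FPKM. The lowest of these ratios was close to that of uL29c, the plastid core protein gene with the ratio nearest to 0. The plastid-encoded ribosomal proteins could not be set beside these, since all 26 of their genes, like all 133 genes of the plastid genome in the table, were listed at 0 in both genotypes.

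**Figure D3:**
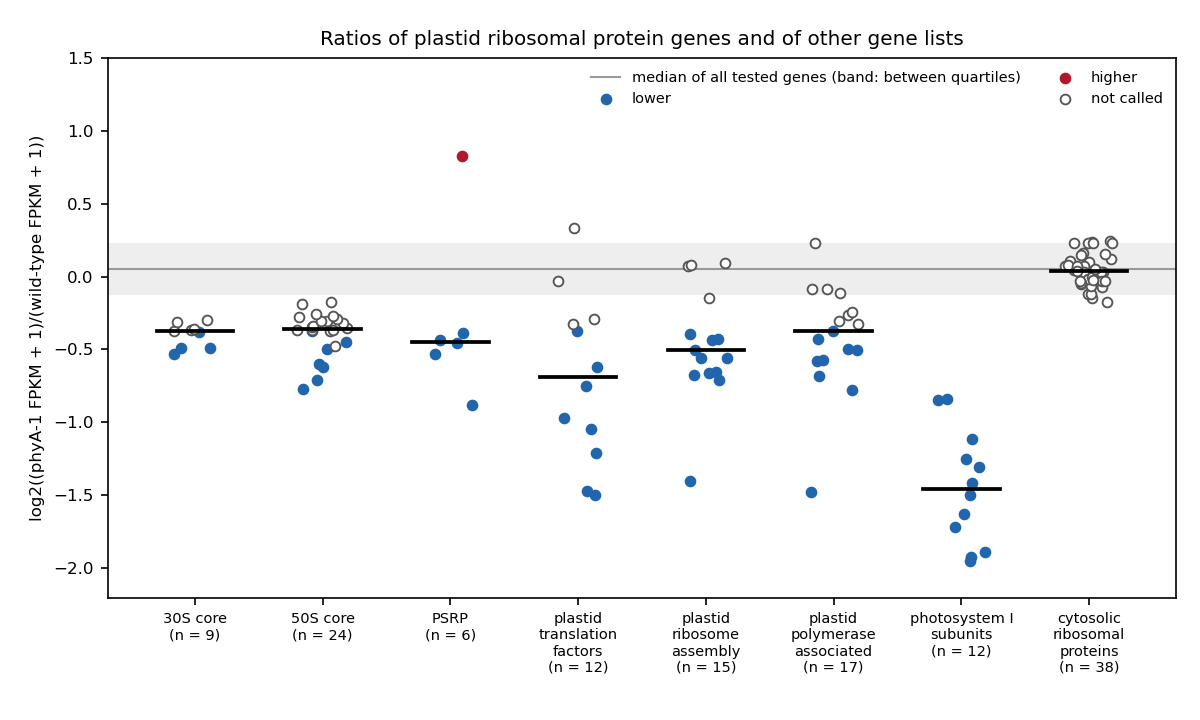
Log2 ratio of phyA-1 over wild type (y axis) for each gene of the 3 classes of plastid ribosomal proteins and of 5 other lists, blue for called lower, red for called higher and open for not called; black bars are list medians, and the grey line and band are the median and the range between the quartiles of all tested genes. Medians were -0.37, -0.36 and -0.45 for the 3 classes, -1.46 for photosystem I and 0.04 for the cytosolic ribosomal proteins.

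Motifs were counted around the annotated starts, from 250 bases before to 50 bases after each, on both strands, for all 39 genes and for 27443 protein-coding genes of the assembly. The I-box, GATAAG, was in 19 of the 39 windows (48.7%), against 14.6% of all windows. The site II element, TGGGCC, known from genes of ribosomal proteins and bound by TCP factors, was in 13 (33.3%), against 15.5%. The G-box, CACGTG, bound by light-signalling factors such as HY5 and the PIF proteins, was in 4 (10.3%), against 7.68%. The telo-box, AAACCCTAA, known from genes of the cytosolic ribosome, was in 1 (2.56%), against 3.6%. No motif of the 4 contains another, and no test of these shares was made.

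Genes with and without a motif had similar ratios. The I-box was in 8 of the 16 genes called lower and in 11 of the other 23, and the median log2 ratio was -0.36 with it and -0.37 without it. The site II element was in 5 of the 16 and 8 of the 23, with a median log2 ratio of -0.37 both with and without it. The 4 genes with a G-box were PSRP4, PSRP5, uL1c and bL19c-1, and the gene with a telo-box was bL27c. Within the 250 bases before the start alone, the shares were 25.6% of the 39 genes against 12.3% of all for the I-box and 30.8% against 13.7% for the site II element.

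**Figure D4:**
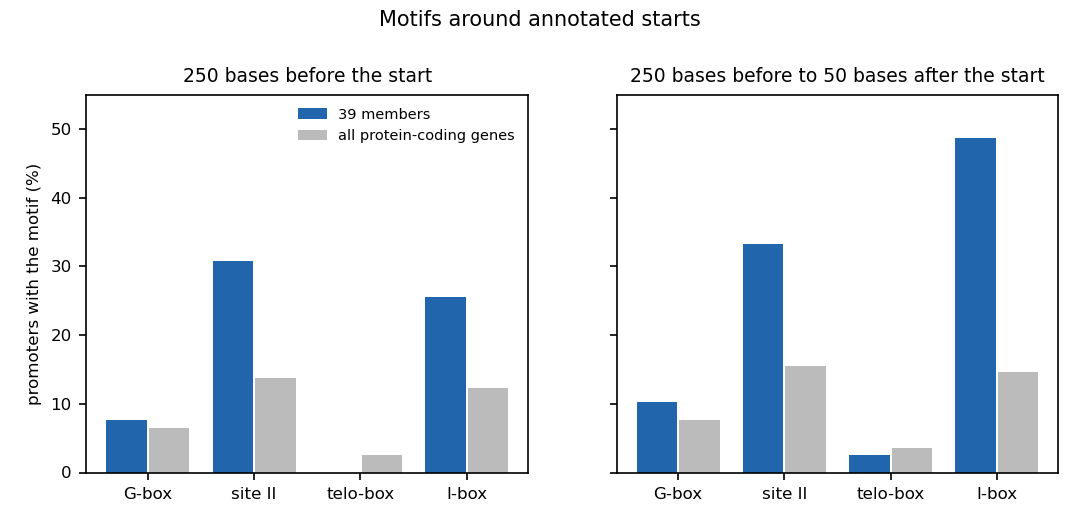
Share of windows that hold each of 4 motifs (y axis, percent), for the 39 genes in blue and all protein-coding genes in grey, in the 250 bases before the start (left) and in the window that runs to 50 bases after it (right). The I-box share of the 39 genes is 25.6% on the left and 48.7% on the right, while that of all genes is 12.3% and 14.6%.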

How the data were processed

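The labels describe 3 libraries of polyadenylated RNA for each of 2 genotypes. Bowtie (alignment) and TAIR10 (genome build) are named, per the submitters' processing notes. No source used here names the program behind the levels and the test, or says whether strand was kept. The authors deposited 1 table without a header. It is laid out like the gene tables of Cuffdiff, and columns were told apart by position and content.

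The authors deposited 1 pooled FPKM per gene and genotype. They also deposited a log2 ratio (wild type divided by phyA-1), a test score, and a p-value and q-value. The smallest deposited p-value, 5e-05, is shared by 1668 genes. Depth per library is unknown, and 0 columns of single samples were available, so no fit, SD or interval was computed.

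Calls use the deposited q-value at 0.05, from the authors' own test. A Benjamini-Hochberg adjustment recomputed over the 22892 tested genes gave higher values, for bL28c 0.0613 in place of the deposited 0.0433. The set of tests behind the deposited q-values is not stated, and the calls nearest the threshold depend on it. Ratios were recomputed as phyA-1 over wild type with a pseudocount of 1, which understates the change of low genes. Gene coordinates are those of the table, 1-based. Promoters, coding sequences and motifs were read from the RefSeq genome and annotation of TAIR10.1, whose gene ends differ from the table's for many genes. The code for the adjustment, overlapping loci, motifs and sequence identity was checked on made-up data, and that for the ratios was not (Python 3.11.15, pandas 2.3.3, NumPy 2.4.6, SciPy 1.17.1, Biopython 1.88).

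Members are named with both levels, except 1 that counts in every total but is not reported here. The ratio and q-value are given for the 5 lowest and 5 highest ratios, the 3 highest mean levels and the bL12c and bL19c genes, and q-values also for the genes nearest the threshold, chosen after their values were seen. In each other list up to 4 called genes with the largest ratios are named, or with none called the gene of highest mean level. Members and lists were chosen with earlier results of these data known. Protein identity was not compared, and coding sequences were used in its place.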

Additional observations from a re-analysis of the deposited data

How the results depend on the processing

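At a q-value of 0.01 instead of 0.05, 9 of the 39 genes were called lower, with 2 of the 30S core proteins and 2 of the PSRP. Among the 7 that lost their call there were PSRP6, bL12c-C, PSRP5, PSRP4, uS13c and bL28c. A Benjamini-Hochberg adjustment recomputed over all tested genes left 13 called lower, without PSRP4, uS13c and bL28c. The share of all tested genes called was not counted for this adjustment or for the q-value of 0.01. The background of 8.54% therefore does not apply to these counts. Leaving out genes whose locus covers another gene left 0 called higher, since PSRP1 is one of them, and 3 PSRP called lower. A minimum mean of 5 FPKM changed no count of members. Pseudocounts of 0.1 and 5 and centring on the median of tested genes kept the direction of all 39 ratios, and the median stayed between -0.44 and -0.36. With a pseudocount of 5 the median was -0.55 for translation factors, -0.39 for assembly factors and -0.29 for polymerase-associated proteins, because low levels weigh less there. The I-box share was 25.6% before the start alone and 28.2% in the first 50 bases after it, the second window and the comparison with genes of similar level being chosen after the data were seen. No paired analysis was possible because the table holds 1 pooled value per genotype, and for the same reason no replicate could be left out. Depth per library is unknown, so it cannot be said which differences were too small to detect.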

Other observations

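The I-boxes of the plastid ribosomal protein genes lay to a large part just after the start annotated by RefSeq, a position looked at after the shares were seen. RefSeq and the deposited loci had the same start or end for 41.1% of the 26687 genes compared. Positions relative to the deposited starts were not examined. In the first 50 bases after the start, 11 of the 39 genes (28.2%) held the motif on either strand, against 2.50% of 27443 protein-coding genes. As GATAAG on the gene's strand it was there in 4 (10.3%), against 1.08% of all, and as CTTATC in 7 (17.9%), against 1.43% of all. In the 250 bases before the start, GATAAG was in 7.69% of the 39 against 6.30% of all, and CTTATC in 17.9% against 6.45%. The shares were not tested, and genes that share an ancestor, such as the bL12c pair, are not independent.

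Sites after the start are shown for 4 genes that differ in their ratio and strand, each with 6 bases on either side and the motif in capitals. They lay 32 bases from the start in PSRP2, 36 in PSRP6, 27 in uL6c and 38 in uL3c. PSRP2 and PSRP6 were called lower, while uL6c and uL3c were not called. Of the other genes with CTTATC after the start, bL12c-A, bL12c-C and PSRP5 were called lower, while bL31c and uL29c were not called. The other genes with GATAAG there, bL9c and bL19c-2, were not called. Whether strand goes with the call was not tested.
PSRP2: ttcttcCTTATCgacacc
PSRP6: tctcttCTTATCttatag
uL6c: acgatgGATAAGtctttt
uL3c: gaagaaGATAAGagtgtg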
